A study of Mus musculus with 16 samples.

Results

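The mitophagy receptors and adaptors described here are 7 genes, Bnip3, Bnip3l, Fundc1, Pink1, Map1lc3a, Map1lc3b and Sqstm1, taken by symbol from a table of 21924 protein-coding genes. All 7 were in the table, and all 7 passed the filter on low values that 14841 genes passed (at least 1 CPM in at least 2 libraries). RNA was sequenced from mouse germline stem (GS) cells, cultured spermatogonial stem cells fed with GDNF and FGF2 and carried on feeder cells (mouse embryonic fibroblasts). The 16 libraries fall into 8 groups of 2. In the Hif1a line, on a mixed 129 and C57BL/6 background, cells labelled Hif1a KO and wild type cells were each kept at 1% or at 20% oxygen. The cells labelled Hif1a KO received AxCANCre, a virus carrying Cre, on the day the low oxygen began, and the sources used here do not say if wild type cells got a virus too. C57BL/6 cells, Top1mt KO or wild type, were kept at 1% oxygen alone, and wild type DBA/2 cultures were held at either level, 1% or 20%. Low oxygen lasted 2 days according to the series text, while library names carry a mark of 6 days in the Hif1a line at 1% and of 2 days in the C57BL/6 cells. Library numbers in the names jump between the oxygen levels in the Hif1a line and in DBA/2, and the DBA/2 and the Hif1a-line wild type libraries at 1% carry the same 2 numbers. Names of the Hif1a-line libraries at 1% also carry a B that those at 20% lack. What the numbers and the B mark is not stated. Any difference between sequencing sets thus cannot be told apart from the oxygen level or from the line. Nothing says that the 2 libraries of a group came from separate cultures, so p-values measure the spread between these libraries, which may be technical, and comparisons that share a group are not independent.

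Mitophagy is the removal of mitochondria by autophagy. In receptor-driven mitophagy, proteins of the outer mitochondrial membrane (BNIP3, its paralogue BNIP3L or NIX, and FUNDC1) carry a short motif that binds lipid-bound LC3 on the growing autophagosome. In the ubiquitin-driven route, the kinase PINK1 builds up on damaged mitochondria, activates the ubiquitin ligase Parkin, and adaptors such as SQSTM1 (p62) tie ubiquitin-coated cargo to LC3. Bnip3 and Bnip3l are textbook targets of the hypoxia-inducible factors, whose DNA core motif is written ACGTG or GCGTG, and Sqstm1 is a known target of NRF2, the factor of the antioxidant response. RNA levels do not measure mitophagy itself, which depends on protein modification and flux.

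Promoter windows of 250 bases before to 50 after the gene start, from RefSeq on build GRCm38.p6, were matched for 5 of the 7 genes (Bnip3, Fundc1, Pink1, Map1lc3b and Sqstm1). Bnip3 is printed because it had the largest oxygen response of the 7, and Sqstm1 and Map1lc3b because each was called lower at 1% oxygen in DBA/2 and higher in the libraries labelled Hif1a KO. Capitals mark ACGTG or GCGTG on either strand and TGACNNNGC, and the lower case sequence around them is the rest of the window, 5′ to 3′ on the gene's own strand.
Bnip3 (chr7:138909457-138909756, minus strand): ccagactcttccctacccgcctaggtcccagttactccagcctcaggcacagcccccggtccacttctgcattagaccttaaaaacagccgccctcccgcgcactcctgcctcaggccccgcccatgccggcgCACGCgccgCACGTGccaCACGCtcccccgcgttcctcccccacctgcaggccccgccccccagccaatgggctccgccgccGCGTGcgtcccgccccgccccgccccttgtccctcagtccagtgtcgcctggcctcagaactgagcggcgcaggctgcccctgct
Sqstm1 (chr11:50210771-50211070, minus strand): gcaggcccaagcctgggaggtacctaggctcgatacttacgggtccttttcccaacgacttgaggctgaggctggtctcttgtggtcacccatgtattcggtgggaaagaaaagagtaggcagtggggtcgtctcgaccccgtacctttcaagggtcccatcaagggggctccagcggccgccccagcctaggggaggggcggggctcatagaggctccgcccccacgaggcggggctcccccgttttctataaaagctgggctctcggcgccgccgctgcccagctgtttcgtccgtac
Map1lc3b (chr8:121590188-121590487, plus strand): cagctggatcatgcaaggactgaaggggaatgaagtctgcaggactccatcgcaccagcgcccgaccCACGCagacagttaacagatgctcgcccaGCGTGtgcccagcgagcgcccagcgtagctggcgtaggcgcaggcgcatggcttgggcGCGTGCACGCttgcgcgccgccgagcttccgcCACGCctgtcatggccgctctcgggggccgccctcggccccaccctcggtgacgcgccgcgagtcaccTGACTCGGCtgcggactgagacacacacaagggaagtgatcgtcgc
The Bnip3 window held ACGTG at -107 from the gene start and its reverse complement at -108, which overlap and together spell CACGTG at -108. It also held GCGTG at -35 and, as reverse complement, at -117 and -99. In the Sqstm1 window neither motif occurred, and neither did TGACNNNGC, the core to which NRF2 binds. Pink1 had GCGTG at -47, and Map1lc3b had GCGTG 5 times and TGACNNNGC once, at 5 bases after the start. The Fundc1 window had no match, but it lay inside the gene as GENCODE draws it and so downstream of the GENCODE start. Among 32851 promoter windows of the same length, 19.6% held ACGTG, 32.4% GCGTG, 43.8% at least 1 of these, 7.15% CACGTG and 12.4% TGACNNNGC on either strand. A match is a description of letters and not of binding, and a window with no match says nothing of the factor.

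Depth was 11942104 to 25659895 reads on these genes per library, so that 1 read stood for 0.0390 to 0.0837 CPM. The lowest read count of any of the 7 genes was 103 (Fundc1, Hif1a-line wild type replicate 1 at 1%). The Hif1a transcript went against its label: at 1% oxygen, libraries labelled Hif1a KO had 618 and 593 CPM, against 251 and 251 CPM in wild type, and at 20% those labelled Hif1a KO had 139 and 142 CPM, against 116 and 118 CPM in wild type. A gene-level value does not test whether an exon was deleted, so these are called the libraries labelled Hif1a KO throughout. Top1mt had 9.99 and 11 CPM in Top1mt KO, against 32.8 and 34.8 CPM in C57BL/6 wild type. The 23 feeder fibroblast markers, none of them at 0, had a mean sum that ran from 8483 CPM in DBA/2 at 1% oxygen to 71558 CPM in the libraries labelled Hif1a KO at 1%. The sum of 16 germ cell markers was lowest in the libraries labelled Hif1a KO at 1%, with 1965 CPM, and highest in DBA/2 at 1%, with 5512 CPM, while sums of 6 leukocyte and 8 testis somatic markers were low, at 11.7 to 23.5 and 25.3 to 56.3 CPM. The leukocyte sum in labelled Hif1a KO at 1% was 2.01 times that at 20% and 1.82 times that in wild type at 1%. At 1% the testis somatic sum was 0.602 to 0.714 times that at 20% over labelled Hif1a KO, Hif1a-line wild type and DBA/2. In Top1mt KO it was 1.43 times wild type. Markers of undifferentiated spermatogonia, 6 genes including Gfra1 and Etv5, fell with low oxygen in each oxygen comparison. In labelled Hif1a KO, Hif1a-line wild type and DBA/2, 6 of 6 were called lower at 1% than at 20%. Of all genes, 54.7%, 34.6% and 25.5% were called lower in turn. In Hif1a-line wild type it was 5 of 6 after median-of-ratios scaling. The sums of these markers were 0.401, 0.665 and 0.484 times those at 20% in turn. These markers were also lower in both genotypes at 1%, with 6 of 6 called, beside 49.1% and 33.2% of all genes. Their sums were 0.56 times wild type in labelled Hif1a KO and 0.338 times wild type in Top1mt KO. In bulk RNA, fewer cells of a type and less RNA per cell cannot be told apart. All fold changes below are log2 fold changes of CPM + 1 from limma, with standard errors, and understate changes of low genes. Median-of-ratios scaling moved the median log2 fold change over all 14841 genes to 0.02 against -0.29 as deposited for the libraries labelled Hif1a KO at 1% over 20%, and to 0.03 against -0.21 for labelled Hif1a KO over wild type at 1%. It also moved that median to 0.07 against -0.17 for the interaction of label and oxygen, and to -0.01 against -0.13 for the difference between Hif1a-line wild type and DBA/2 in their oxygen responses.

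**Figure D1:**
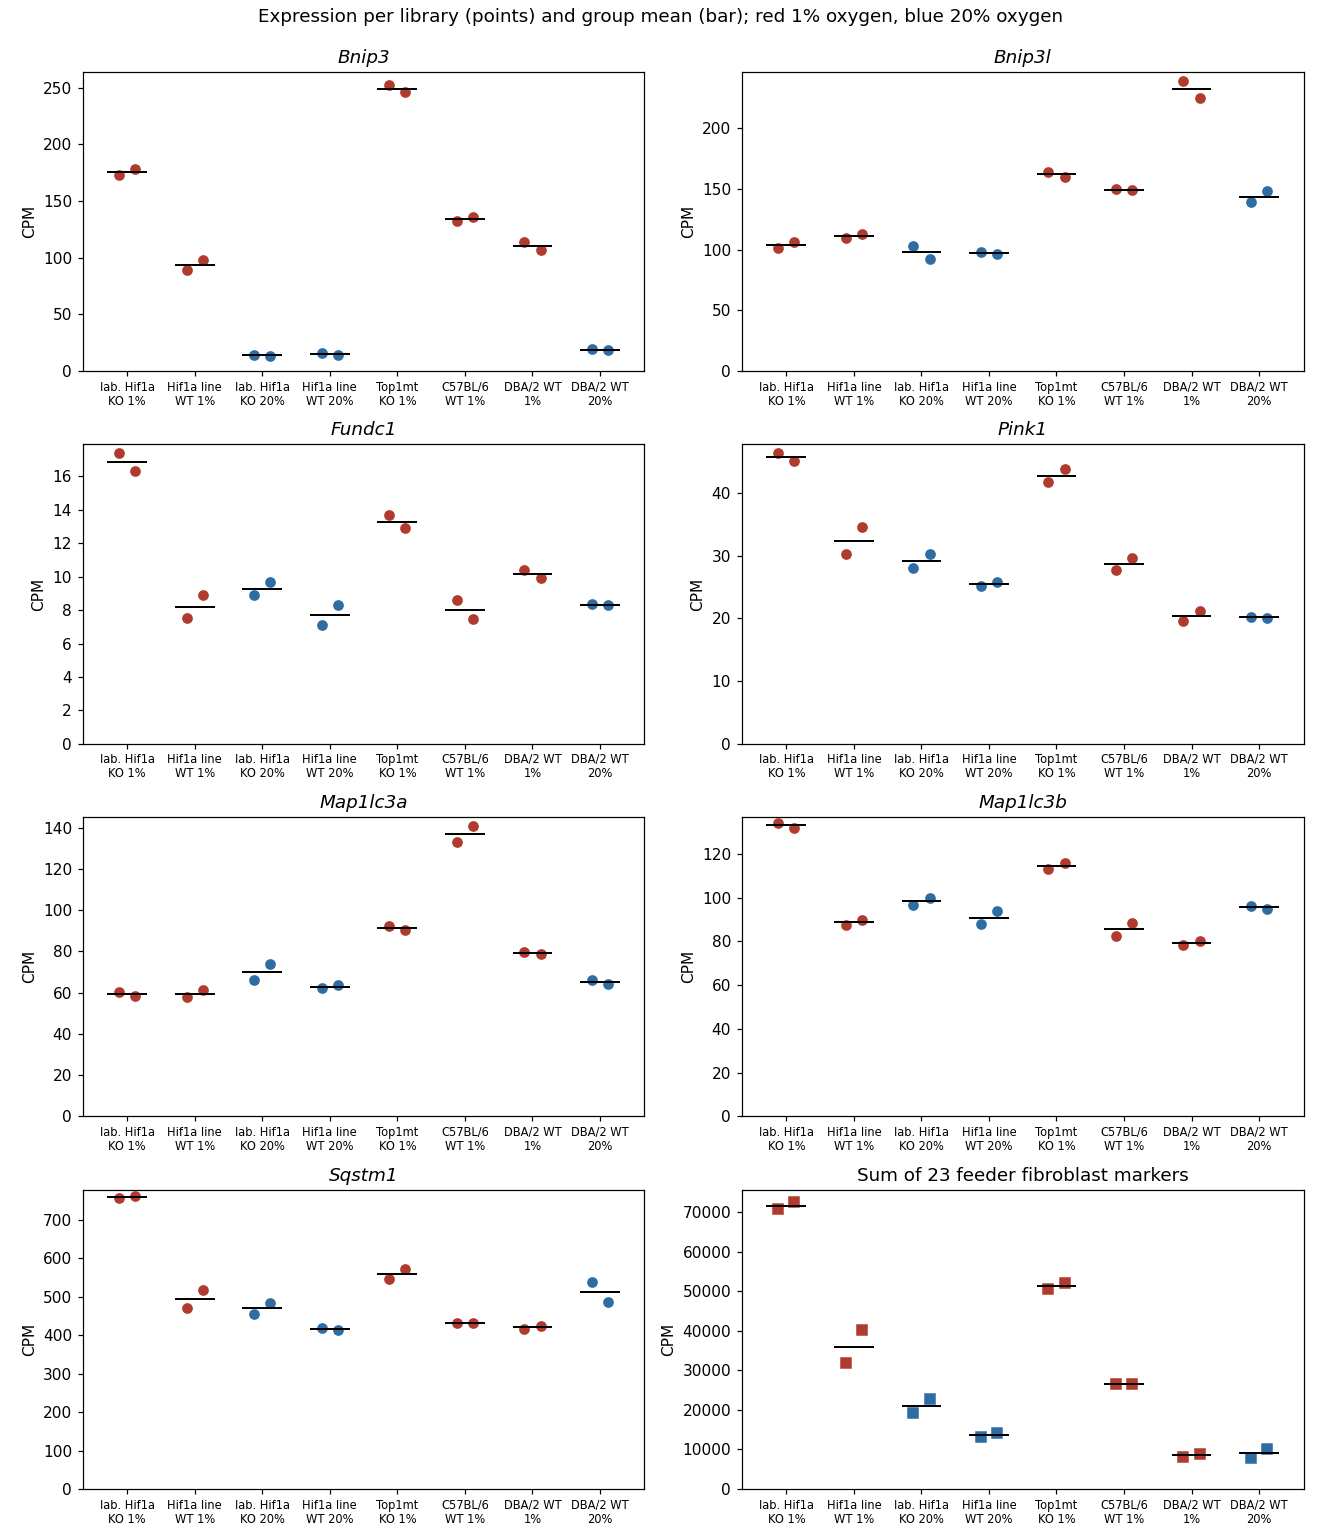
Expression in CPM (vertical axes, from 0) of each of the 7 genes in the 16 libraries, with the summed feeder fibroblast markers in the last panel. Points are libraries, bars are group means, red is 1% and blue 20% oxygen, and the Bnip3 panel shows every 20% library at 13.4 to 19.2 CPM and every 1% library at 89.6 CPM or more.

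Limma called 5 of the 7 genes higher and 1 lower at 1% than at 20% oxygen in the libraries labelled Hif1a KO, where it called 79.9% of all genes (25.2% higher, 54.7% lower). In Hif1a-line wild type it called 4 of 7 higher and none lower, against 53.1% of all genes (18.4% higher, 34.6% lower). In DBA/2 it called 3 higher and 2 lower, against 57.4% of all genes (31.8% higher, 25.5% lower). Called in either direction, 6, 4 and 5 of 7 genes in these 3 comparisons in turn lay near the share of all genes. After median-of-ratios scaling 6 were called higher and none lower in labelled Hif1a KO. What differed between the 3 comparisons was the makeup of each count: Bnip3 alone was called higher at 1% in all 3 under every alternative run.

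Between genotypes, 5 of 7 were called higher and none lower in the libraries labelled Hif1a KO against wild type at 1% oxygen, beside 77.4% of all genes (28.3% higher, 49.1% lower). At 20% oxygen 1 of 7 was called higher, beside 22.4% of all genes (12.9% higher, 9.55% lower). In Top1mt KO against C57BL/6 wild type, 5 were called higher and 1 lower, beside 58.4% of all genes (25.2% higher, 33.2% lower). The median log2 fold change of the 7 genes was 0.58, 0.15 and 0.42 in these 3 comparisons in turn, beside -0.21, -0.03 and -0.04 over all genes. After median-of-ratios scaling the calls were 7 higher and none lower for labelled Hif1a KO against wild type at 1%, 1 higher at 20%, and 6 higher and 1 lower for Top1mt KO. After the same scaling 54.3% of all called genes were higher for labelled Hif1a KO over wild type at 1%, against 36.6% as deposited. At 20% that share was 60.4%, against 57.4%, and for Top1mt KO 50.1%, against 43.1%. For 1% over 20% it was 53.2%, against 31.6%, in labelled Hif1a KO and 49.7%, against 34.7%, in Hif1a-line wild type.

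Bnip3, whose protein anchors LC3 to the outer mitochondrial membrane, varied most, 18.8-fold between its lowest and its highest library. The gene lies on chromosome 7 (138890836 to 138909519, minus strand, mm10). It had 173 and 178 CPM in the libraries labelled Hif1a KO at 1% oxygen, against 14.7 and 13.4 CPM in those at 20%. Hif1a-line wild type had 89.6 and 98.3 CPM at 1%, against 15.7 and 14.2 CPM at 20%. DBA/2 cells had 114 and 107 CPM at 1%, against 19.2 and 18.6 CPM at 20%. No library at 1% overlapped one at 20% in any line. The mean rose 12.5-fold in the libraries labelled Hif1a KO, 6.30-fold in Hif1a-line wild type and 5.87-fold in DBA/2, with log2 fold changes of 3.55 ± 0.06, 2.58 ± 0.06 and 2.49 ± 0.06. The limma adjusted p-values were 4.8e-19 for labelled Hif1a KO, 1.17e-16 for wild type and 2.24e-16 for DBA/2. In DBA/2 the summed feeder markers at 1% were 0.944 times those at 20% while Bnip3 rose 5.87-fold. Of the 23 feeder markers, 5 were called higher and 10 lower there, beside 31.8% and 25.5% of all genes. The undifferentiated spermatogonia sum was 0.484 times that at 20%. The part of either cell type in the result was not tested. In the Hif1a line the feeder sum at 1% was 3.41 times that at 20% in the libraries labelled Hif1a KO and 2.63 times in wild type, and its part in the result was not tested.

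The oxygen response of Bnip3 was larger in the libraries labelled Hif1a KO than in wild type by 0.98 ± 0.09 on the log2 scale (limma interaction, adjusted p = 7.16e-08), and by 1.25 after median-of-ratios scaling. Of the 7 genes, 5 were called higher and none lower for this interaction, against 58% of all genes called in either direction, 19% higher and 39% lower. Higher genes were 61.5% of all called genes after that scaling, against 32.8% as deposited. Hif1a-line wild type and DBA/2 did not differ past the threshold in their Bnip3 response, with a difference of 0.09 ± 0.09 (limma adjusted p = 0.457). At 1% oxygen the labelled Hif1a KO libraries exceeded wild type 1.87-fold (log2 0.90 ± 0.06, limma adjusted p = 1.55e-10), and 1.10 on the log2 scale when set against the median of all genes. At 20% the values of both labels overlapped (log2 -0.08 ± 0.06, limma adjusted p = 0.386). Top1mt KO had 252 and 246 CPM, against 132 and 136 CPM in C57BL/6 wild type. That is also 1.87-fold (log2 0.90 ± 0.06, limma adjusted p = 6.62e-10), without overlap, and Top1mt KO held the highest Bnip3 level of the 8 groups. Beside these genotype differences the feeder sum in labelled Hif1a KO at 1% was 1.99 times that in wild type and in Top1mt KO 1.93 times that in C57BL/6 wild type, and the germ cell marker sum was 0.442 and 0.744 times that of wild type. The undifferentiated spermatogonia sum was 0.56 times that of wild type in labelled Hif1a KO at 1% and 0.338 times in Top1mt KO. Their part in the result was not tested. In order of level the groups ran Top1mt KO, labelled Hif1a KO at 1%, C57BL/6 wild type, DBA/2 at 1%, Hif1a-line wild type at 1%, DBA/2 at 20%, Hif1a-line wild type at 20% and labelled Hif1a KO at 20%, and the last 2 alone overlapped their neighbour.

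**Figure D2:**
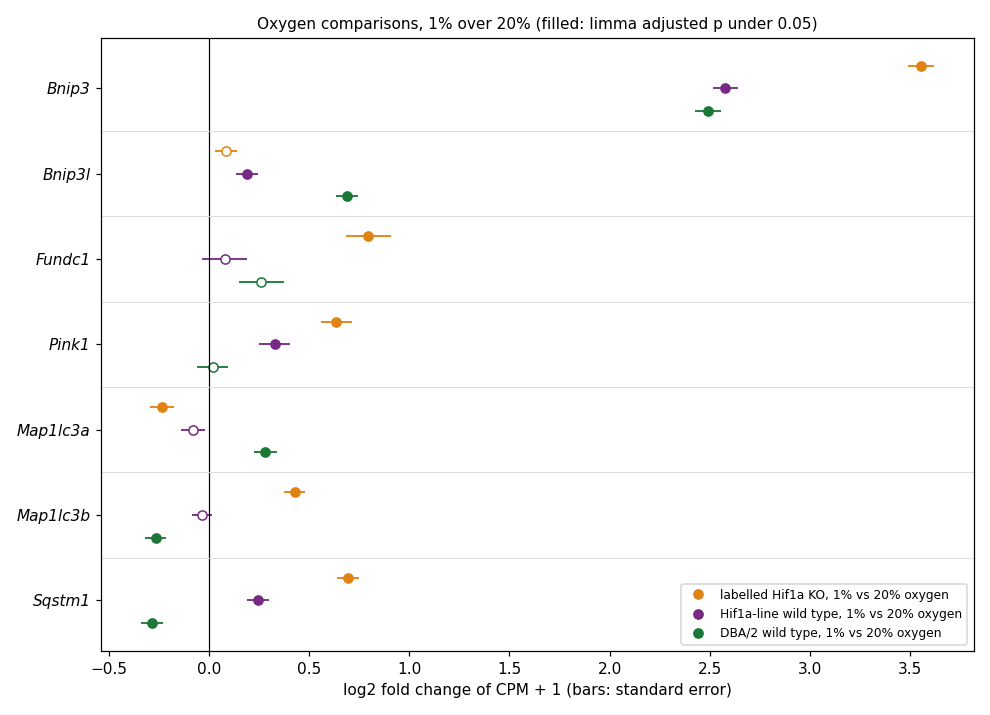
Log2 fold changes of CPM + 1 for 1% over 20% oxygen in the libraries labelled Hif1a KO, Hif1a-line wild type and DBA/2 (horizontal axis), 1 row per gene, bars showing the standard error and filled points a limma adjusted p under 0.05. Bnip3 lies at 2.49 to 3.55 in all 3 comparisons. Map1lc3b lies above 0 in labelled Hif1a KO, below 0 in DBA/2 and near 0, not called, in Hif1a-line wild type. Sqstm1 lies below 0 in DBA/2 alone.

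Bnip3l, the paralogue best known for clearing mitochondria from maturing red blood cells, responded less and mainly in DBA/2. It lies on chromosome 14 (66985239 to 67008877, minus strand). In DBA/2 it had 239 and 225 CPM at 1% oxygen, against 139 and 148 CPM at 20%, without overlap, a log2 fold change of 0.69 ± 0.05 (limma adjusted p = 3.04e-09). Hif1a-line wild type had 110 and 113 CPM at 1%, against 98.3 and 96.7 CPM at 20%, also without overlap but a smaller rise, 0.19 ± 0.05 (limma adjusted p = 0.00635). The libraries labelled Hif1a KO had 101 and 106 CPM at 1%, against 103 and 92.5 CPM at 20%, which overlapped (0.09 ± 0.05, limma adjusted p = 0.159), although it was called higher after median-of-ratios scaling (0.44, adjusted p = 6.07e-07). The response in Hif1a-line wild type was smaller than that in DBA/2 by a difference of -0.50 ± 0.08 (limma adjusted p = 3.77e-05), a test that called 3 of the 7 genes higher and 2 lower, against 46% of all genes, 15.1% higher and 30.9% lower. Of those called genes 51.6% were higher after median-of-ratios scaling, against 32.9% as deposited.

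No genotype comparison called Bnip3l as deposited. Top1mt KO had 164 and 160 CPM, against 150 and 149 CPM in C57BL/6 wild type, without overlap (0.12 ± 0.05, limma adjusted p = 0.0787), and it was called higher after scaling (0.17, adjusted p = 0.0136). Labelled Hif1a KO against wild type at 1% gave -0.10 ± 0.05 (limma adjusted p = 0.0988), which turned to 0.18 after scaling (adjusted p = 0.00714). At 20% the difference was 0.005 ± 0.055 (limma adjusted p = 0.957). DBA/2 at 1% had the highest level of the 8 groups and labelled Hif1a KO and wild type of the Hif1a line at 20% the lowest, those last 2 overlapping.

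Per kilobase of exon, Bnip3l exceeded Bnip3 in every 20% library, where the ratio of Bnip3 to Bnip3l was 0.241 and 0.248 in labelled Hif1a KO, 0.272 and 0.249 in Hif1a-line wild type and 0.235 and 0.214 in DBA/2. At 1% the ratio was 2.91 and 2.85 in labelled Hif1a KO, 1.39 and 1.48 in Hif1a-line wild type, 2.62 in both Top1mt KO libraries, 1.49 and 1.55 in C57BL/6 wild type and 0.816 and 0.812 in DBA/2. Bnip3 thus passed Bnip3l in 8 of the 10 libraries at 1%, and stayed below it in the 2 DBA/2 libraries. A ratio within a library does not depend on the scaling between libraries. Both genes have near-identical copies: Bnip3 has 4 pseudogenes and a lincRNA at 93.0 to 98.9% identity and an antisense gene, and Bnip3l has Bnip3l-ps at 95.8% over 1173 bases, so their levels are uncertain to the extent that reads were shared. None of these copies was in the table.

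**Figure D3:**
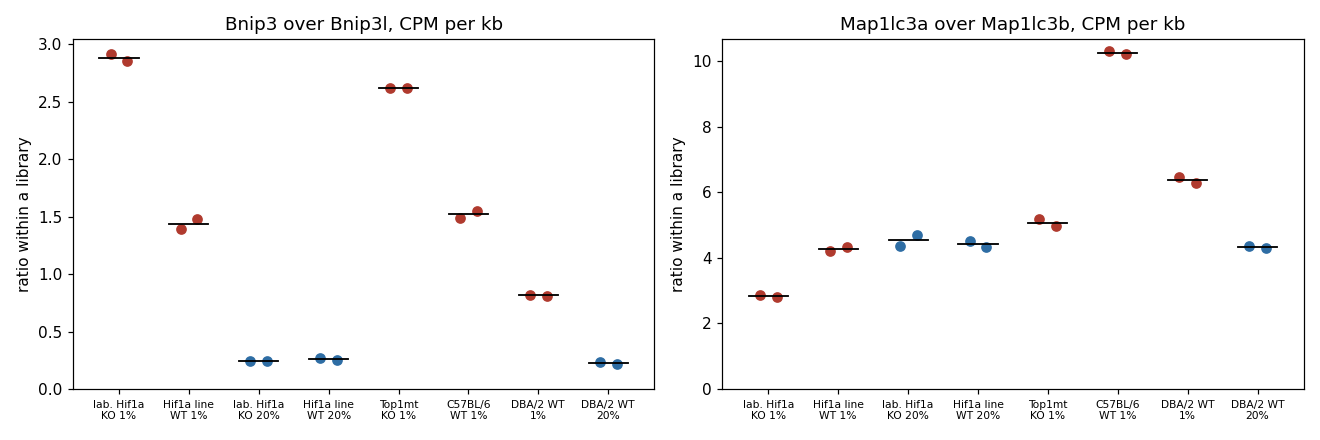
Ratio of Bnip3 to Bnip3l (left) and of Map1lc3a to Map1lc3b (right), each as CPM per kilobase within a library (vertical axes, from 0), in the 8 groups. Points are libraries and bars group means, red 1% and blue 20% oxygen, and the left panel shows 0.214 to 0.272 in all 20% libraries.

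Fundc1, a mitochondrial receptor that is regulated mainly by phosphorylation in hypoxia, was the lowest of the 7 in CPM, with a median of 8.89 CPM over the 16 libraries. It lies on chromosome X (17556564 to 17572325, minus strand). It had 17.4 and 16.3 CPM in the libraries labelled Hif1a KO at 1% oxygen, against 8.88 and 9.69 CPM in those at 20%. Wild type of the Hif1a line had 7.51 and 8.90 CPM at 1%, against 7.11 and 8.32 CPM at 20%. DBA/2 had 10.4 and 9.93 CPM at 1%, against 8.38 and 8.28 CPM at 20%. Fundc1 rose in labelled Hif1a KO by 0.79 ± 0.11 (limma adjusted p = 2.17e-06), the overlapping wild type libraries gave 0.08 ± 0.11 (limma adjusted p = 0.577), and DBA/2, without overlap, gave 0.26 ± 0.11 (limma adjusted p = 0.0544). The DBA/2 value passed the threshold with a filter at 5 CPM (adjusted p = 0.0475) and with only the 2 groups in the fit (adjusted p = 0.0397).

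At 1% oxygen Fundc1 was 2.05-fold higher in labelled Hif1a KO than in wild type (log2 0.96 ± 0.11, limma adjusted p = 1.93e-07), and the oxygen responses differed by 0.72 ± 0.16 (limma interaction, adjusted p = 0.000794). At 20% the difference was 0.24 ± 0.11 (limma adjusted p = 0.129). Top1mt KO had 13.7 and 12.9 CPM, against 8.58 and 7.46 CPM in C57BL/6 wild type, a rise of 0.67 ± 0.11 without overlap (limma adjusted p = 4.21e-05). The 3 highest groups, labelled Hif1a KO at 1%, Top1mt KO and DBA/2 at 1%, did not overlap their neighbours, whereas DBA/2 at 20%, Hif1a-line wild type at 1%, C57BL/6 wild type and Hif1a-line wild type at 20% overlapped in turn. Feeder marker sums rank labelled Hif1a KO at 1% and Top1mt KO first as well, with 71558 and 51272 CPM, and DBA/2 at 1% last, with 8483 CPM. Their part in these results was not tested.

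Pink1, the kinase that senses loss of mitochondrial import, lies on chromosome 4 (138313409 to 138326307, minus strand). It had 46.4 and 45.1 CPM in labelled Hif1a KO at 1% oxygen, against 28.1 and 30.2 CPM in labelled Hif1a KO at 20%. Hif1a-line wild type had 30.2 and 34.5 CPM at 1%, against 25.2 and 25.8 CPM at 20%. DBA/2 had 19.6 and 21.2 CPM at 1%, against 20.2 and 20.1 CPM at 20%. Pink1 rose in the Hif1a line with both labels, by 0.64 ± 0.08 (limma adjusted p = 2.43e-07) in labelled Hif1a KO and by 0.33 ± 0.08 (limma adjusted p = 0.00131) in wild type, without overlap. In DBA/2 the libraries overlapped and the value was 0.02 ± 0.08 (limma adjusted p = 0.853).

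Top1mt KO had 41.7 and 43.8 CPM of Pink1, against 27.8 and 29.7 CPM in C57BL/6 wild type (0.56 ± 0.08, limma adjusted p = 3.8e-06). Labelled Hif1a KO exceeded wild type by 0.49 ± 0.08 at 1% (limma adjusted p = 8.26e-06) and by 0.18 ± 0.08 at 20% (limma adjusted p = 0.0898). The interaction of label and oxygen was 0.31 ± 0.11 (limma adjusted p = 0.0209), but it was lost without labelled Hif1a KO replicate 1 at 1% (adjusted p = 0.0661), without wild type replicate 1 at 1% (adjusted p = 0.113), without labelled Hif1a KO replicate 1 at 20% (adjusted p = 0.0846) and without wild type replicate 2 at 20% (adjusted p = 0.0617). The response in Hif1a-line wild type exceeded that in DBA/2 by 0.31 ± 0.11 (limma adjusted p = 0.0244), which was likewise lost without DBA/2 replicate 1 at 1% (adjusted p = 0.101), DBA/2 replicate 1 or 2 at 20% (adjusted p = 0.0609 and 0.0507), wild type replicate 2 at 1% (adjusted p = 0.121) or wild type replicate 1 at 20% (adjusted p = 0.0727). The order of Pink1 group means, from labelled Hif1a KO at 1% and Top1mt KO down to both DBA/2 groups, followed that of the feeder marker sum at the top and at the bottom, a relation whose part in the result was not tested.

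**Figure D4:**
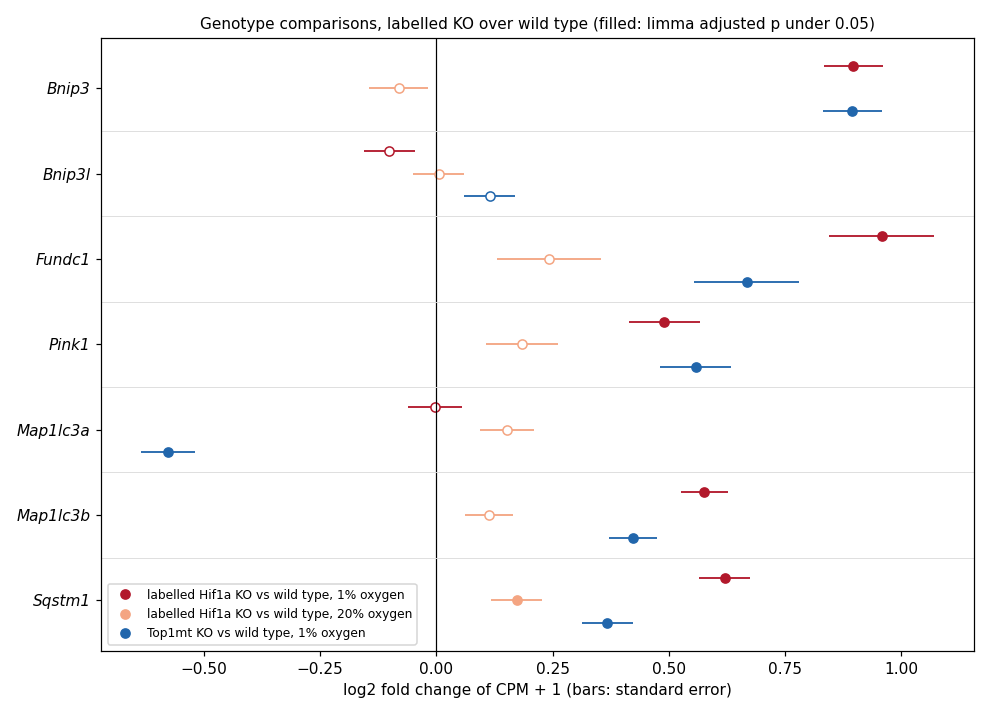
Log2 fold changes of CPM + 1 for labelled Hif1a KO over wild type at 1% and 20% oxygen and for Top1mt KO over C57BL/6 wild type (horizontal axis), 1 row per gene, bars showing the standard error and filled points a limma adjusted p under 0.05. Bnip3 lies at 0.90 in both comparisons at 1%, and Map1lc3a at -0.58 in Top1mt KO.

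Map1lc3a and Map1lc3b code for the LC3 proteins that receptors and adaptors bind. Map1lc3a lies on chromosome 2 (155276297 to 155278073, plus strand) and Map1lc3b on chromosome 8 (121590361 to 121598760, plus strand). In DBA/2 they moved in opposite directions with oxygen. Map1lc3a had 79.7 and 78.8 CPM at 1%, against 66.0 and 64.1 CPM at 20%, a rise of 0.28 ± 0.06 (limma adjusted p = 0.000388). Map1lc3b had 78.5 and 80 CPM at 1%, against 96.3 and 94.7 CPM at 20%, and fell by 0.27 on the log2 scale (SE 0.05, limma adjusted p = 0.00019). Neither pair of groups overlapped. In Hif1a-line wild type neither gene passed the threshold: Map1lc3a had 57.7 and 61.2 CPM at 1%, against 62.1 and 63.7 CPM at 20% (limma adjusted p = 0.259), and Map1lc3b had 87.4 and 89.9 CPM at 1%, against 87.8 and 94.0 CPM at 20% (limma adjusted p = 0.586).

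In the libraries labelled Hif1a KO, Map1lc3b had 134 and 132 CPM at 1% oxygen, against 96.5 and 100 CPM at 20%, without overlap (0.43 ± 0.05, limma adjusted p = 2.11e-07). Map1lc3a had 60.5 and 58.2 CPM at 1% there, against 66.1 and 74.0 CPM at 20%, called lower as deposited (-0.23 ± 0.06, limma adjusted p = 0.00114) but at 0.12 after median-of-ratios scaling (adjusted p = 0.0605) and 0.07 with edgeR (adjusted p = 0.285), so its direction depends on the scaling. Against wild type at 1%, labelled Hif1a KO was higher in Map1lc3b by 0.58 ± 0.05 (limma adjusted p = 3.52e-09), and Map1lc3a gave -0.0023 ± 0.0582 as deposited (limma adjusted p = 0.972) and 0.28 after scaling (adjusted p = 0.000291). At 20% the 2 genes gave 0.15 ± 0.06 for Map1lc3a (limma adjusted p = 0.0677) and 0.11 ± 0.05 for Map1lc3b (limma adjusted p = 0.118).

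Top1mt KO separated the 2 genes as well. Map1lc3a had 92.5 and 90.5 CPM in Top1mt KO, against 133 and 141 CPM in C57BL/6 wild type, and fell by 0.58 on the log2 scale (SE 0.06, limma adjusted p = 7.51e-08). Map1lc3b had 113 and 116 CPM in Top1mt KO, against 82.5 and 88.5 CPM in wild type, and rose by 0.42 ± 0.05 (limma adjusted p = 8.08e-07). The Map1lc3a fall was the sole fall among the 7 genes in this comparison, and the groups did not overlap. Within a library, the ratio of Map1lc3a to Map1lc3b per kilobase was 2.88 and 2.81 in labelled Hif1a KO at 1%, 4.20 and 4.33 in Hif1a-line wild type at 1%, 4.36 and 4.70 in labelled Hif1a KO at 20% and 4.50 and 4.32 in wild type at 20%. It was 5.19 and 4.96 in Top1mt KO, against 10.3 and 10.2 in C57BL/6 wild type, and 6.46 and 6.27 in DBA/2 at 1%, against 4.36 and 4.31 in DBA/2 at 20%. The exon length used for Map1lc3b, 7517 bases, joins all annotated isoforms and lowers its level per kilobase. Zcchc14, at 159 to 406 CPM, overlaps Map1lc3b on the opposite strand, and the sources used here do not state whether counting used strand, so their reads may not be told apart.

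Sqstm1, the ubiquitin-binding adaptor p62, was the most abundant of the 7, with 413 to 761 CPM. It lies on chromosome 11 (50199366 to 50210827, minus strand). It rose with low oxygen in the Hif1a line and fell in DBA/2. The libraries labelled Hif1a KO had 758 and 761 CPM at 1%, against 456 and 484 CPM at 20% (0.69 ± 0.05, limma adjusted p = 4.63e-10). Hif1a-line wild type had 471 and 518 CPM at 1%, against 420 and 413 CPM at 20% (0.24 ± 0.05, limma adjusted p = 0.000892). DBA/2 had 416 and 425 CPM at 1%, against 539 and 486 CPM at 20%, and fell by 0.28 on the log2 scale (SE 0.05, limma adjusted p = 0.000186). None of these pairs of groups overlapped, and the direction in each comparison held under every alternative. The response in Hif1a-line wild type exceeded that in DBA/2 by 0.53 ± 0.08 (limma adjusted p = 1.88e-05), and that in labelled Hif1a KO exceeded wild type by 0.45 ± 0.08 (limma adjusted p = 6.8e-05). Feeder marker sums moved in the same order, 3.41, 2.63 and 0.944 times those at 20% in labelled Hif1a KO, Hif1a-line wild type and DBA/2. Their part in the result was not tested.

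At 1% oxygen Sqstm1 was higher in labelled Hif1a KO than in wild type by 0.62 ± 0.05 (limma adjusted p = 3.02e-09). At 20% it was the 1 gene of the 7 called, by 0.17 ± 0.05 (limma adjusted p = 0.0279), and this call was lost with no filter on low values (adjusted p = 0.0625), without labelled Hif1a KO replicate 2 (adjusted p = 0.22) and without wild type replicate 1 or 2 (adjusted p = 0.104 and 0.136). Top1mt KO had 545 and 571 CPM, against 432 and 433 CPM in C57BL/6 wild type (0.37 ± 0.05, limma adjusted p = 9.59e-06), without overlap. The other NRF2 targets and their sensor, 9 genes tested, were called in both directions. In labelled Hif1a KO at 1% over 20%, 4 were higher and 3 lower (7 and 2 after median-of-ratios scaling). Hif1a-line wild type gave 5 higher and 1 lower, and DBA/2 gave 4 higher and 4 lower. The share called higher was 44.4%, 55.6% and 44.4% in turn, beside 25.2%, 18.4% and 31.8% of all genes. The share called lower was 33.3%, 11.1% and 44.4%, beside 54.7%, 34.6% and 25.5% of all genes. Nqo1, a quinone reductase, fell in the Hif1a line at 1%, to 10.6 ± 0.305 CPM against 54.5 ± 2.99 CPM at 20% in labelled Hif1a KO and to 8.68 ± 0.19 CPM against 30.2 ± 0.813 CPM in wild type (SD, n = 2 each). Hmox1, heme oxygenase 1, rose to 627 ± 23.8 CPM at 1% in labelled Hif1a KO, against 217 ± 4.03 CPM at 20%. Mrnip overlaps Sqstm1 on the opposite strand with 583 shared bases and had 5.51 to 15.4 CPM, far below Sqstm1.

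Wild type cells of different lines also differed in these genes. At 20% oxygen, Hif1a-line wild type against DBA/2 gave 1 of 7 called higher (Pink1, 0.33 ± 0.08, limma adjusted p = 0.0016) and 3 lower (Bnip3, Bnip3l and Sqstm1), beside 48.9% of all genes called, 26.4% higher and 22.6% lower. Bnip3l was lowest relative to DBA/2, at 0.680 times its mean (log2 -0.55 ± 0.05, limma adjusted p = 1.52e-07). At 1% oxygen, C57BL/6 against DBA/2 gave 3 higher (Bnip3, Pink1 and Map1lc3a) and 2 lower (Bnip3l and Fundc1), beside 61.8% of all genes, 28.9% higher and 32.9% lower. The Fundc1 call was lost after median-of-ratios scaling (adjusted p = 0.0657), with edgeR (adjusted p = 0.0539), without DBA/2 replicate 1 (adjusted p = 0.106) and without C57BL/6 replicate 2 (adjusted p = 0.179). Map1lc3b was called higher there after median-of-ratios scaling (adjusted p = 0.00593) and with edgeR (adjusted p = 0.00524). That gives 4 higher and 1 lower under either. Of all called genes 55.4% and 55.7% were higher under these in turn, against 46.7% as deposited. Hif1a-line wild type against C57BL/6 at 1% gave 1 higher (Sqstm1) and 3 lower (Bnip3, Bnip3l and Map1lc3a), beside 58.1% of all genes, 24.3% higher and 33.9% lower. The Sqstm1 call was lost without Hif1a-line wild type replicate 2 (adjusted p = 0.0789), and Pink1 was called higher after median-of-ratios scaling (adjusted p = 0.0177) and with edgeR (adjusted p = 0.0132), which gives 2 higher and 3 lower under either. Of all called genes in that comparison 49.9% and 49.7% were higher under these in turn, against 41.8% as deposited. Map1lc3a differed most between lines. It was at 0.434 times the C57BL/6 mean in Hif1a-line wild type (log2 -1.19 ± 0.06, limma adjusted p = 3.26e-12). In C57BL/6 it was at 1.73 times the DBA/2 mean (0.78 ± 0.06, limma adjusted p = 1.2e-09). Strain and line cannot be told apart in these comparisons. Feeder markers moved with them: 17 of 23 were called higher in the Hif1a line than in DBA/2 at 20% (sums of 13680 and 8983 CPM), 21 of 23 in C57BL/6 than in DBA/2 at 1% (26509 and 8483 CPM), and 16 of 23 in the Hif1a line than in C57BL/6 at 1% (36016 and 26509 CPM). Their part in these results was not tested, and the last comparison also sets libraries marked 6 days against libraries marked 2 days.

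**Figure D5:**
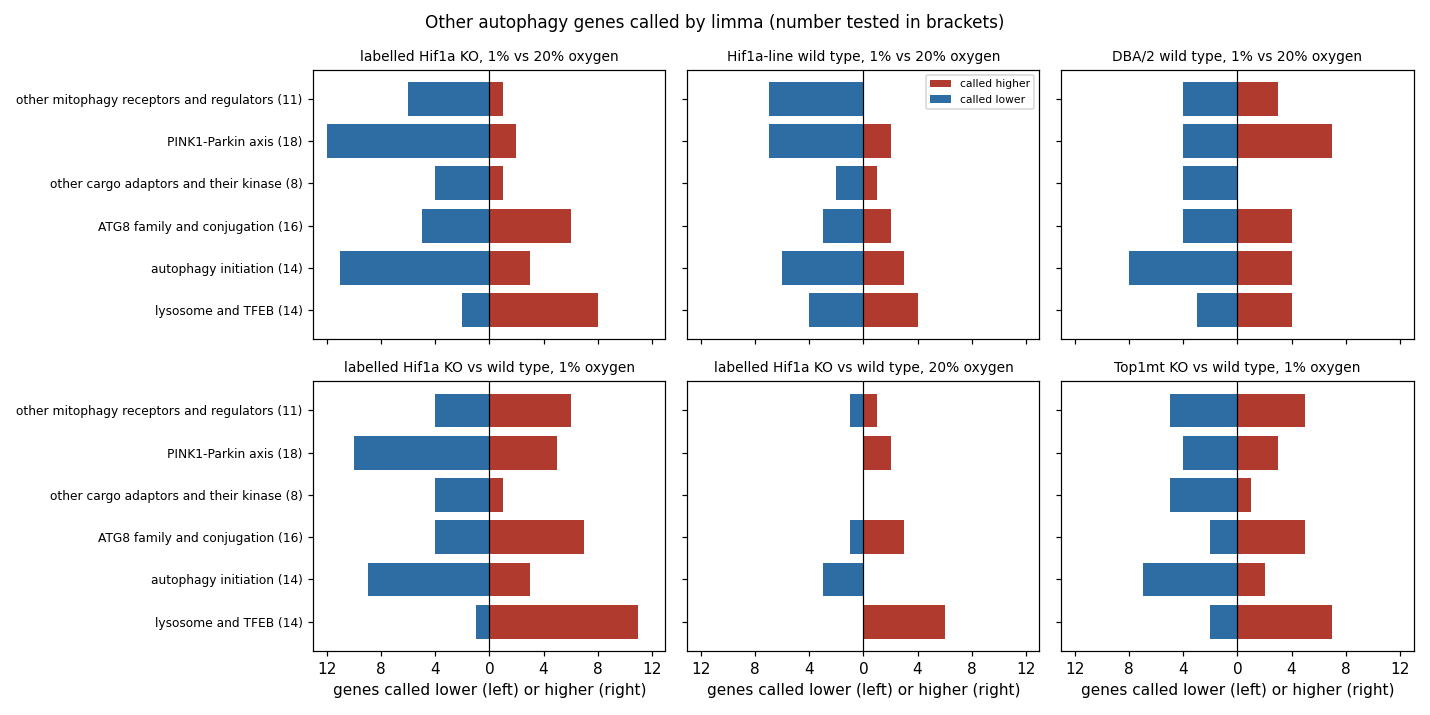
Number of genes called lower (blue, left of 0) and higher (red, right of 0) by limma in 6 lists of other mitophagy and autophagy genes (number tested in brackets), in the 3 oxygen comparisons (upper row, 1% against 20%) and the 3 genotype comparisons (lower row, labelled KO against wild type). With the deposited scaling, autophagy initiation has more genes lower than higher in every panel, which turns to 6 higher and 4 lower for labelled Hif1a KO at 1% over 20% and to 5 and 4 for labelled Hif1a KO over wild type at 1% after median-of-ratios scaling.

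Other genes of the pathway were called in both directions, and their counts are read against the shares of all genes called in the same comparison. Among 11 other mitophagy receptors and regulators, 1 was called higher and 6 lower at 1% over 20% in labelled Hif1a KO (4 higher and 3 lower after median-of-ratios scaling), none higher and 7 lower in Hif1a-line wild type (none higher and 5 lower after scaling), and 3 higher and 4 lower in DBA/2. The share called lower was 54.5%, 63.6% and 36.4% in these comparisons in turn, beside 54.7%, 34.6% and 25.5% of all genes. In labelled Hif1a KO the share called lower was thus near that of all genes. The share called higher was 9.09%, 0.0% and 27.3% in turn, beside 25.2%, 18.4% and 31.8% of all genes. Phb2, a prohibitin of the inner membrane that serves as a mitophagy receptor, fell at 1% to 137 ± 1.37 CPM, against 218 ± 3.0 CPM at 20% in labelled Hif1a KO. Ambra1, an autophagy regulator, fell to 90.5 ± 0.302 CPM at 1% in DBA/2, against 118 ± 2.70 CPM at 20%. Fundc2, a paralogue of Fundc1, rose in DBA/2 to 35.5 ± 2.46 CPM, against 21.4 ± 1.67 CPM at 20% (SD, n = 2 each, here and for the genes below).

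Among 18 genes of the PINK1-Parkin axis, 2 were called higher and 12 lower at 1% in labelled Hif1a KO (7 higher and 4 lower after median-of-ratios scaling), 2 higher and 7 lower in Hif1a-line wild type (3 higher and 5 lower), and 7 higher and 4 lower in DBA/2. The share called lower was 66.7%, 38.9% and 22.2%, beside 54.7%, 34.6% and 25.5% of all genes. It was thus near the share of all genes in Hif1a-line wild type and DBA/2. The share called higher was 11.1%, 11.1% and 38.9% in turn, beside 25.2%, 18.4% and 31.8% of all genes. Vdac1, the outer membrane channel that Parkin tags with ubiquitin, rose to 188 ± 6.06 CPM at 1% in labelled Hif1a KO, against 95.2 ± 5.04 CPM at 20%, and to 124 ± 7.09 CPM at 1% in DBA/2, against 60.3 ± 4.06 CPM at 20%. Parl, the inner membrane protease that cleaves PINK1, fell to 42.1 ± 2.49 CPM at 1% in labelled Hif1a KO, against 73.7 ± 1.00 CPM at 20%, and to 45.1 ± 6.25 CPM in Hif1a-line wild type, against 76.8 ± 1.85 CPM. Mfn2, a fusion protein that Parkin marks for removal, fell to 86.8 ± 3.78 CPM at 1% in DBA/2, against 124 ± 0.648 CPM at 20%. In Top1mt KO the axis gave 3 higher and 4 lower (6 and 3 after scaling). As deposited that is 16.7% and 22.2%, beside 25.2% and 33.2% of all genes. Vdac1 had 343 ± 24.5 CPM in Top1mt KO, against 204 ± 4.51 CPM in C57BL/6 wild type.

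Of 8 other cargo adaptors and their kinase, none was called higher and 4 lower at 1% in DBA/2 (6 lower after scaling). In Top1mt KO 1 was called higher and 5 lower. Beside these, 25.5% and 33.2% of all genes were called lower in turn, and 31.8% and 25.2% higher. Hif1a-line wild type gave 1 higher and 2 lower at 1%, beside 18.4% and 34.6% of all genes. Optn, optineurin, an adaptor of the PINK1-Parkin route, fell to 21.8 ± 0.174 CPM in Top1mt KO, against 43.0 ± 0.883 CPM in C57BL/6 wild type, while Sqstm1 rose there. In labelled Hif1a KO the adaptor counts turned over with the scaling: 1 higher and 4 lower at 1% over 20% as deposited and 3 higher and none lower after median-of-ratios scaling. The ATG8 family and its conjugation genes, 16 tested, gave 7 higher and 4 lower in labelled Hif1a KO over wild type at 1%. Top1mt KO gave 5 higher and 2 lower. The share called higher was 43.8% and 31.2%, beside 28.3% and 25.2% of all genes. The share called lower was 25.0% and 12.5%, beside 49.1% and 33.2%. At 1% over 20%, 37.5% were higher in labelled Hif1a KO, 12.5% in Hif1a-line wild type and 25.0% in DBA/2. Beside these were 25.2%, 18.4% and 31.8% of all genes. The share called lower was 31.2%, 18.8% and 25.0%, beside 54.7%, 34.6% and 25.5%. Gabarap, an ATG8 family protein like LC3, rose to 245 ± 1.01 CPM in labelled Hif1a KO at 1%, against 149 ± 3.57 CPM in wild type, and its relative Gabarapl1 rose to 158 ± 6.00 CPM in Top1mt KO, against 104 ± 4.58 CPM in C57BL/6 wild type. Wipi1, which binds the lipid of the forming autophagosome, rose to 131 ± 3.94 CPM at 1% in labelled Hif1a KO, against 70.0 ± 2.21 CPM at 20%, but fell in DBA/2 to 46.9 ± 0.445 CPM at 1%, against 67.8 ± 0.603 CPM at 20%.

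Among 14 autophagy initiation genes, the calls were 3 higher and 11 lower at 1% in labelled Hif1a KO (6 higher and 4 lower after median-of-ratios scaling), 3 higher and 6 lower in Hif1a-line wild type, 4 higher and 8 lower in DBA/2, and 2 higher and 7 lower in Top1mt KO. The share called lower was 78.6%, 42.9%, 57.1% and 50% in turn, beside 54.7%, 34.6%, 25.5% and 33.2% of all genes. In all of these but DBA/2, all genes were themselves called lower more often than higher. The share called higher was 21.4%, 21.4%, 28.6% and 14.3%, beside 25.2%, 18.4%, 31.8% and 25.2% of all genes. Atg2a, a lipid transfer protein, fell to 141 ± 5.94 CPM at 1% in DBA/2, against 293 ± 2.25 CPM at 20%, and Ulk1, the kinase that starts autophagy, to 115 ± 9.08 CPM, against 187 ± 0.744 CPM. Pik3r4, a subunit of the lipid kinase complex, fell to 94.2 ± 2.37 CPM at 1% in labelled Hif1a KO, against 173 ± 2.61 CPM at 20%. Lysosome and TFEB genes, 14 tested, gave 8 higher and 2 lower at 1% in labelled Hif1a KO (13 and 1 after scaling), 4 and 4 in Hif1a-line wild type, 4 and 3 in DBA/2, 11 and 1 in labelled Hif1a KO over wild type at 1%, and 7 and 2 in Top1mt KO (11 and 1 after scaling). The share called higher was 57.1%, 28.6%, 28.6%, 78.6% and 50% in turn, beside 25.2%, 18.4%, 31.8%, 28.3% and 25.2% of all genes. The share called lower was 14.3%, 28.6%, 21.4%, 7.14% and 14.3%, beside 54.7%, 34.6%, 25.5%, 49.1% and 33.2% of all genes. Ctsl, cathepsin L, rose to 1430 ± 7.16 CPM in labelled Hif1a KO at 1%, against 647 ± 72.0 CPM in wild type at 1%. Tfeb itself, the transcription factor of lysosome genes, fell to 22.8 ± 0.645 CPM at 1% in labelled Hif1a KO, against 67.3 ± 6.30 CPM at 20%, and to 30.3 ± 2.17 CPM in Hif1a-line wild type, against 63.7 ± 3.35 CPM. In the 3 comparisons with the most lysosome genes called higher the feeder sum in the first group was 3.41, 1.99 and 1.93 times that in the second, and its part in the result was not tested. For comparison, 6 of 6 hypoxia check genes, among them Adm and Egln3, were called higher at 1% in each oxygen comparison. Of all genes, 25.2% were called higher in labelled Hif1a KO, 18.4% in Hif1a-line wild type and 31.8% in DBA/2.

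Across the 8 group means, the genes whose pattern was most like that of Bnip3 were Plod2 (Pearson r = 0.998), Egln3 (r = 0.997) and Ccng2 (r = 0.992), among 11797 genes with a mean of at least 5 CPM. Pink1 was most like Nfatc4 (r = 0.995), Adamtsl5 (r = 0.991) and Anxa1 (r = 0.991). Fundc1 was most like Serinc1 (r = 0.987), Chmp1b (r = 0.987) and Copb1 (r = 0.971), and Map1lc3b most like Micu2 (r = 0.991) and Pdcd6ip (r = 0.983). For Bnip3l the nearest were Mzt1 (r = 0.986), Actr3 (r = 0.985) and Zfp383 (r = 0.982), for Map1lc3a Pard6b (r = 0.983), Gpat3 (r = 0.975) and Trmt2b (r = 0.975), and for Sqstm1 Sh3bgrl (r = 0.966), Klhdc8b (r = 0.965) and Thbs3 (r = 0.958). These are descriptions over 8 points that share feeder content, line and oxygen level. Among the 7 genes themselves the highest correlation was between Map1lc3b and Sqstm1 (r = 0.92) and the lowest between Bnip3l and Map1lc3b (r = -0.39). Bnip3 and Bnip3l correlated at 0.46.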

How the data were processed

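Each sample was one library of polyadenylated RNA from GS cells on feeder cells, 16 in 8 groups of 2, grouped by strain, genotype and oxygen as labelled. The authors deposited 1 table of CPM (each gene's reads scaled to a common library total) for 21924 protein-coding genes, and its columns were mapped to samples by name, with 0 columns left unmapped. Per the submitters' processing notes, cutadapt 1.16, STAR 2.6.0c, HTSeq 0.11.2, DESeq2 1.22.2 and build mm10 were used; their roles, the annotation, the strand setting and read filters are not given in the sources used here. Replicates were not pooled. All values in the 16 libraries (100%) were whole multiples of 1 read within a tolerance of 0.01, so whole reads were recovered.

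The main test was limma 3.58.1 (R 4.3.3) on log2(CPM + 1) with 1 mean per group over all 16 libraries, trended moderation, no replicate block and Benjamini-Hochberg adjustment over the 14841 genes with at least 1 CPM in at least 2 libraries; calls were made at an adjusted p under 0.05. It was first run on simulated data in which few genes were changed, all in a single group. That run does not test it where as many genes are called as here. There were 11 comparisons, and the 2 libraries of a group were compared by chi-square (1.79 to 7.6 per gene, where 1 is counting error). Alternatives were pseudocounts of 0.5 and 0.1, no filter, a filter at 5 CPM, median-of-ratios scaling, edgeR 4.0.16 on the recovered reads, the replicate number as a block, the compared groups alone, and each library left out. Genes at 0 reads are limited to 3 reads by counting error, and PCR copies may widen that.

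Named genes are the 7 described, the targeted genes, up to 3 genes of each pathway list with the smallest adjusted p and a mean of at least 5 CPM in a compared group, and for each of the 7 the 3 genes most correlated over group means, of which 1 is not reported here. The genes and lists were chosen with earlier results of these data known. Coordinates and exon lengths come from GENCODE M21 (GRCm38), near copies from blastn 2.17.0, and promoter sequences from RefSeq (GRCm38.p6); Bnip3l and Map1lc3a had no promoter entry.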

Additional observations from a re-analysis of the deposited data

Results flagged for a closer look

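With 2 libraries a group, no test for a library standing apart from its group was run. Some responses of these genes to oxygen differed between groups by a test of the difference itself, with limma over all genes, and each is given here as a log2 difference.

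The response to 1% oxygen in the libraries labelled Hif1a KO exceeded that in Hif1a-line wild type by 0.98 for Bnip3, 0.72 for Fundc1, 0.31 for Pink1, 0.46 for Map1lc3b and 0.45 for Sqstm1. The Pink1 difference is the weakest of these, with an adjusted p over 0.05 when certain single libraries were left out. The response in Hif1a-line wild type differed from that in DBA/2 by -0.50 for Bnip3l, 0.31 for Pink1, -0.36 for Map1lc3a, 0.23 for Map1lc3b and 0.53 for Sqstm1. The differences of Map1lc3a and Map1lc3b had limma adjusted p-values of 0.00147 and 0.0135, and that of Map1lc3b was lost without Hif1a-line wild type replicate 1 at 20% (adjusted p = 0.0831). In both sets the group with the larger response of Sqstm1 and Pink1 was also the one with the larger rise in feeder marker sum at 1% oxygen, 3.41-fold in labelled Hif1a KO and 2.63-fold in Hif1a-line wild type, and 2.63-fold in Hif1a-line wild type and 0.944-fold in DBA/2. The part of the feeder cells in these differences was not tested.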

How the results depend on the processing

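Over the alternatives, 936 of the values of the 7 genes kept their side of the threshold, 19 lost it and 19 gained it. Another 6 reversed direction with the value as deposited or the alternative past the threshold. A change of direction where neither passed was counted among the 936. Fundc1 in Hif1a-line wild type at 1% over 20%, at 0.08 as deposited, ran from -0.03 to 0.19. These 6 reversals all came with another scaling, and changes of direction under the threshold were not traced to a setting. Map1lc3a in labelled Hif1a KO at 1% over 20% became 0.12 with median-of-ratios scaling and 0.0726 with edgeR; in labelled Hif1a KO over wild type at 1%, Bnip3l became 0.18 and 0.15, and Map1lc3a 0.28 and 0.24, under these.

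Counts of called genes moved by over 1.5 times as follows. With median-of-ratios scaling, labelled Hif1a KO at 1% over 20% gave 5964 higher and 5250 lower, against 3747 and 8118. The interaction gave 4952 higher and 3105 lower with that scaling and 4240 and 3448 with edgeR, against 2819 and 5784. The line difference gave 2947 and 3052 lower, against 4582. Leaving out single libraries gave 1063 to 1756 higher and 423 to 1200 lower for labelled Hif1a KO over wild type at 20%, against 1912 and 1417. The lowest counts came without labelled Hif1a KO replicate 2 (1063 and 509) and without wild type replicate 1 (1083 and 423), and 592 were lower without wild type replicate 2. Why the scalings differ was not tested.

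Replicate numbers are shared between groups, but no label says what they pair. Deviations of same-numbered libraries correlated at -0.112 to 0.25 in the 6 comparisons of 2 groups, over 0.1 in 4 of them (0.25, 0.177, 0.153 and 0.143), and the DBA/2 names repeat the same 2 numerals at both oxygen levels. With 2 pairs each this does not settle whether the numbers pair the libraries, and the fit without a block was kept. A replicate block gave 1975 higher and 1661 lower for labelled Hif1a KO over wild type at 20%, and among the 7 genes it changed the call of Pink1 in Hif1a-line wild type against C57BL/6 (adjusted p = 0.0499, against 0.0733). Depth limits Fundc1 most, at 103 reads in the library with the fewest reads on it.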
